A study of Mus musculus with 4 samples.

Results

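The nuclei described here are the endothelial nuclei of the mouse pituitary gland, the cells that line its blood vessels, in single-nucleus RNA libraries. They were selected on measured values: a barcode was kept when it had at least 500 genes, less than 5% mitochondrial transcripts, at least 1 unique transcript (UMI) in 3 or more of 8 endothelial genes (Flt1, Pecam1, Kdr, Emcn, Plvap, Cdh5, Ptprb and Egfl7), and at most 1 UMI summed over 3 somatotrope genes (Ghrhr, Pappa2 and Epha6). The rule chose 479 of the 35615 barcodes that passed the gene and mitochondrial limits, out of 38212 in all. Each of 4 libraries pooled the glands of 3 UM-HET3 wild-type mice, a genetically mixed stock, and the labels name 2 of them 5-month (males, then females) and 2 of them 22-month (males, then females), the order of all values below. Each group is therefore 1 library of pooled, snap-frozen glands, no single animal can be followed, and no group has a replicate. The members numbered 60, 119, 133 and 167 in that order, with 144496, 331901, 422443 and 570873 UMIs and a median of 1658.5, 2022, 2285 and 2586 UMIs per nucleus.

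Sex-linked transcripts went against the labels of 2 libraries, in the endothelial nuclei as in all others. Xist, the X-inactivation RNA of female cells, had 0, 0, 840 and 971 UMIs in the members. Uty, a Y-linked gene, had 35, 72, 1 and 1. The 5-month and 22-month labels thus divide the libraries exactly as Y-linked transcripts and Xist do, and a difference by labelled age cannot be told apart from a difference between libraries with and without Xist. Every library is therefore called by its label below. If the labels of the 5-month female and the 22-month male libraries were exchanged, the labelled age comparison would compare sexes and the labelled sex comparison would compare ages.

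Capillaries of the anterior pituitary carry releasing hormones in from the hypothalamus and pituitary hormones out. Their endothelium is fenestrated: it has pores closed by diaphragms, which the product of Plvap forms, and it is known to depend on VEGF signalling through Kdr. Endothelium of most of the brain is the contrast, since it is sealed by tight junctions such as Cldn5 and carries barrier transporters such as Mfsd2a, Slc2a1 and Slco1c1.

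The share of endothelial nuclei was higher in both libraries labelled female than in both labelled male. It was 0.750% in the library labelled 5-month males (60 of 7999 barcodes, exact 95% binomial interval 0.573 to 0.964%) and 1.60% in that labelled 5-month females (119 of 7420, 1.33 to 1.92%). It was 1.10% in the library labelled 22-month males (133 of 12066, 0.924 to 1.30%) and 2.05% in that labelled 22-month females (167 of 8130, 1.76 to 2.39%). The intervals cover counting error only, and the share was not tested between labels. The limit on somatotrope genes removed 11.8%, 15%, 23.1% and 24.8% of the barcodes with 3 endothelial genes, and these had a median of 9654 to 15268 UMIs, well above the members. Without that limit the share was 0.850%, 1.89%, 1.43% and 2.73%, with the libraries in the same order.

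**Figure D1:**
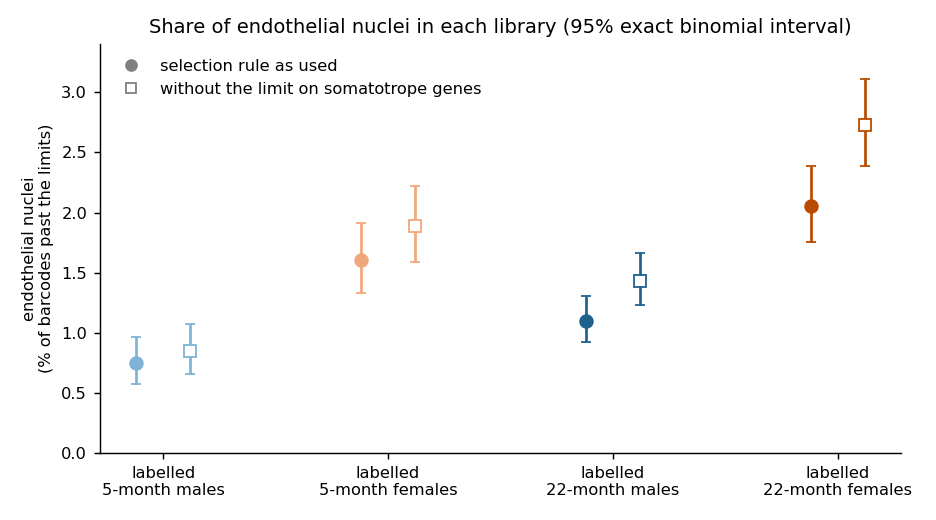
Share of endothelial nuclei among barcodes past the gene and mitochondrial limits (vertical axis, percent) in the 4 labelled libraries (horizontal axis), with exact 95% binomial intervals. Filled circles are the rule as used (0.750%, 1.60%, 1.10% and 2.05%) and open squares drop the limit on somatotrope genes, which raises the libraries labelled 22-month most.

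The rule is sensitive to depth, so the gene minimum bears on the shares. With at least 1000 genes required, the shares were 0.330%, 1.12%, 0.870% and 1.77%, and the intervals of the libraries labelled 5-month females (0.884 to 1.39%) and 22-month males (0.708 to 1.06%) overlapped. Members were shallower than the barcodes around them, whose median was 3603 to 4994 UMIs. Just inside the rule, with 3 of the 8 genes, there were 9, 16, 13 and 9 members, and just outside it, with 2 genes, 10, 27, 27 and 32 barcodes. Those inside had 1074, 459, 1245 and 1179 CPM (the share of all UMIs, scaled as counts per 1e6) from 8 further endothelial genes outside the rule, and those outside had 96.9, 235, 70.4 and 35.5. No barcode was a member in 2 libraries, although 157 barcodes were shared over the pairs of libraries, of which at most 2 per pair were a member in 1 of its libraries.

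The genes of the rule are given as a description, since they chose the members. Emcn, which encodes the sialomucin endomucin, was detected in 90%, 89.1%, 90.2% and 90.4% of members, at 1329, 1157, 1439 and 1125 CPM of the summed counts, against 3.54 to 7.86 CPM in all other nuclei. Egfl7, a secreted vascular protein, was detected in 82.7 to 90% of members, and Plvap in 69.9 to 77.3%. Flt1 and Kdr, the receptors for VEGF, were detected in 48.7 to 77.8% and 53.3 to 73.9%. Pecam1, an adhesion molecule of endothelial contacts, was detected in 40 to 73.1%. Ptprb, the phosphatase that acts on the Tie2 receptor, reached 43.3 to 70.7%, and Cdh5, the cadherin of endothelial junctions, 28.3 to 52.6%. In other nuclei the same 8 genes had a UMI in 0.227 to 5.54% of barcodes.

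Of the markers of neighbouring cell types, some were at 0 in the members and others were detected. Of 10 mural markers, 2, 6, 5 and 6 had any UMI, summing to 62.3, 108, 94.7 and 107 CPM, above the 21.9 to 36.6 CPM of other nuclei, and the pericyte and muscle genes Cspg4, Higd1b and Acta2 were at 0 in every library. The 10 fibroblast markers summed to 83.0, 142, 249 and 126 CPM, below the other nuclei (205 to 398 CPM), and 5, 5, 9 and 7 of them had any UMI. Col1a1 was at 0 except in the library labelled 22-month females, and Pdgfra except in that labelled 22-month males. The 10 macrophage markers summed to 125, 142, 128 and 180.4 CPM, above the other nuclei (48.3 to 64.6 CPM). Of these, 6, 7, 7 and 9 had any UMI, and F13a1 was at 0 in every library. The 11 lymphocyte markers summed to 6.92 to 30.1 CPM. Hormone transcripts were abundant in members: the 7 hormone genes summed to 115754, 82901, 109411 and 61816 CPM, against 80471 to 159071 CPM in the other nuclei. The 5 haemoglobin and related red cell genes summed to 449.8, 1054.5, 535 and 667 CPM, above the 79.3 to 206 CPM of other nuclei. The 10 pituicyte markers summed to 772 to 913 CPM, above the 210 to 389 CPM of other nuclei, of which Gja1, a gap junction gene, held 235, 226, 218 and 391 CPM and Apoe 505, 404, 438 and 368 CPM, while the defining pituicyte genes Rax and Nkx2-1 were at 0 in every library. The part of these other transcripts in the results below was not tested, except where the alternatives leave such nuclei out.

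Genes that the rule did not use were also far higher in the members than in other nuclei. Among 1249 genes with at least 20 UMIs in the members of every library, 94 had a log2 ratio of at least 3 over all other nuclei in all 4 libraries, and 45 had at least 5 (CPM plus 1 in both). These ratios belong to the contrast that chose the members and are a description with no test. Adgrl4, an adhesion G protein coupled receptor of endothelium, stood first with 1439, 1323, 1543 and 1811 CPM against 1.10 to 6.22 CPM in other nuclei. Exoc3l2, related to an exocyst subunit, was at 602, 627, 724 and 660.4 CPM against 0.855 to 3.20. Erg, an ETS-family transcription factor that maintains endothelial identity, was at 228, 322, 286 and 363 CPM against 0.427 to 1.85. Igfbp3, a binding protein for insulin-like growth factors, was at 644, 597, 542 and 1016 CPM against 1.43 to 7.78, and Fgd5, an exchange factor for Cdc42, at 159, 214, 246 and 242 CPM against 0.519 to 1.35. Of the 25 leading genes, 6 were genes of the rule.

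**Figure D2:**
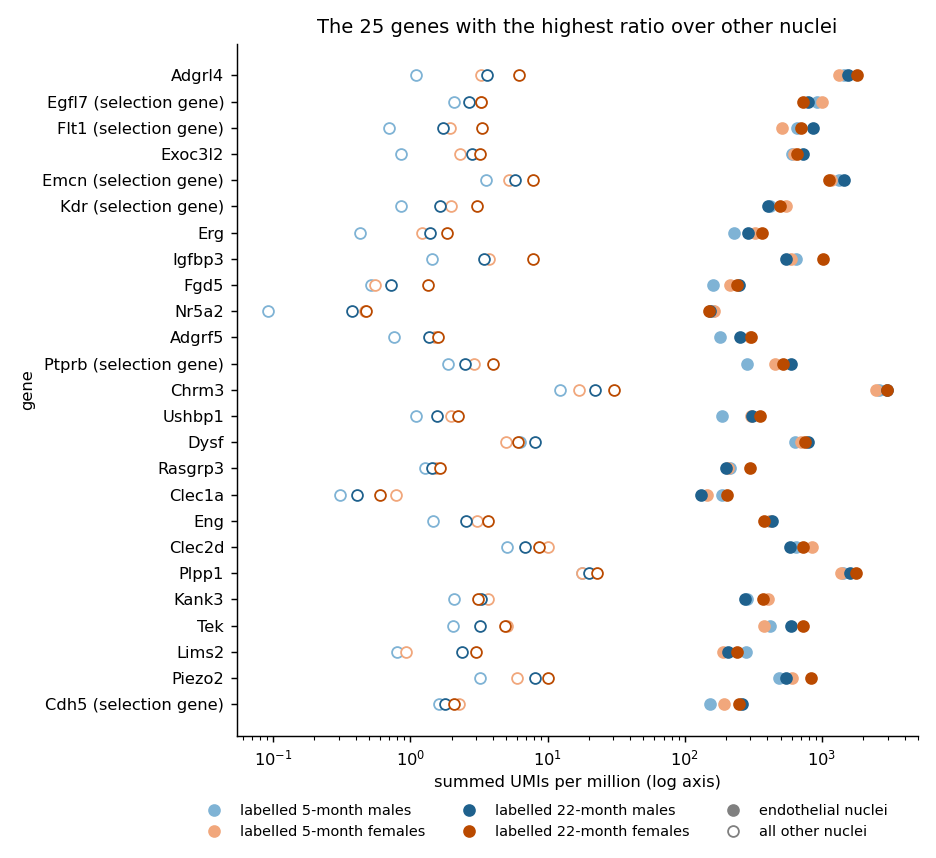
The 25 genes with the highest lowest-of-4-libraries ratio over other nuclei (vertical axis) and their level in CPM (horizontal log axis), in endothelial nuclei (filled) and all other nuclei (open) of each labelled library. The filled points of every gene lie far right of its open points, such as Adgrl4 at 1323 to 1811 against 1.10 to 6.22.

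The leading genes also included a neurotransmitter receptor, a nuclear receptor and an ion channel. Chrm3, the M3 muscarinic acetylcholine receptor, was at 2588, 2492, 2949.5 and 2995 CPM against 12.4 to 30.7 CPM in other nuclei, and 46.6 to 136 CPM in the mural and fibroblast nuclei. Nr5a2, an orphan nuclear receptor, was at 159, 163, 152 and 151 CPM against at most 0.477. Piezo2, a mechanically gated ion channel, was at 484, 599.6, 549 and 830.3 CPM against 3.20 to 10.1. Dysf, the membrane repair protein dysferlin, was at 637, 702, 795 and 751 CPM against 4.99 to 8.04. Rasgrp3 and Clec2d were also present outside the members, since macrophages held 28.5 to 95.6 and 92.1 to 157 CPM of them.

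ETS factors such as Erg and Fli1 bind the core GGAA, and many endothelial promoters carry it, so the promoter windows of the leading genes are shown for the first 3 outside the rule. Each runs from 250 bases before to 50 bases after a RefSeq start site on build GRCm38.p6, on the strand of the gene. The windows are chr3:151437632-151437931 on the plus strand for Adgrl4, chr7:19463037-19463336 on the plus strand for Exoc3l2 and chr16:95586544-95586843 on the minus strand for Erg. Capitals mark matches to AGGAAG or CGGAAG on either strand, which are CTTCCT or CTTCCG when read on the gene's strand.
Adgrl4: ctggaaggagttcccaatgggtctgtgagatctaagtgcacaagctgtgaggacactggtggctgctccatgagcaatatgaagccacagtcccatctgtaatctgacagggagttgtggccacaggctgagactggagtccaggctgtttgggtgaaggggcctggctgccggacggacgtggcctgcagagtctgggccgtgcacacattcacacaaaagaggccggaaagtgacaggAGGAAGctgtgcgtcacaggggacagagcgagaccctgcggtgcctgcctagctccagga
Exoc3l2: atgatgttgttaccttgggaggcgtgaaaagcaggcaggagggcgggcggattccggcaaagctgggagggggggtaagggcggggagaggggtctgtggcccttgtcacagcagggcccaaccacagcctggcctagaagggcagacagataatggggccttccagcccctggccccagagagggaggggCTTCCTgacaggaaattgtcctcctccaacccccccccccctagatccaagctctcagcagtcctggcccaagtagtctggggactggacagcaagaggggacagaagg
Erg: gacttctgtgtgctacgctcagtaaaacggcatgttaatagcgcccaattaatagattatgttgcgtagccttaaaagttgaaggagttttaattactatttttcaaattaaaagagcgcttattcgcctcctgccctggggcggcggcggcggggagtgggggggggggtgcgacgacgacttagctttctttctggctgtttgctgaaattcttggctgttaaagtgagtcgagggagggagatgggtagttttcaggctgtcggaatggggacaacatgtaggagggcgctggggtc
The match in Adgrl4 begins at position -10 from the start site and that in Exoc3l2 at -59, while the Erg window holds neither AGGAAG nor CGGAAG on either strand. Only these longer motifs were marked, and the core GGAA also occurs unmarked in all 3 windows. Of the 25 leading genes 19 matched a window, and 12 of these (63.2%) held a match, against 46.5% of all 32851 windows. A match is a description of the letters, not a site.

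Endothelial transcription factors were high in the members in every library. Of 31 listed factors, 19 were at least 2 times higher in members than in other nuclei in all 4 libraries. Among all 7098 genes tested the number was 849. Only 21 of the 31 factors were tested, so the bases of these numbers are unlike. These counts belong to the contrast that chose the members and are a description with no test. Fli1, a further ETS factor, was at 194, 434, 424 and 422 CPM against 3.97 to 8.36 in other nuclei, although macrophages held 167 to 354 CPM. Mef2c, a MADS-box factor, was at 865, 901, 847 and 998 CPM against 22.4 to 54.9, with 412 to 536 CPM in macrophages. Tcf4 was at 1356, 1609, 1484 and 1953 CPM against 406 to 608. Sox17, a factor of arterial endothelium, was sparse, at 27.7, 18.1, 11.8 and 0 CPM, and its value of 0 in the library labelled 22-month females allows up to 5.26 CPM (3 UMIs of 570873).

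The receptors of the VEGF and angiopoietin axis were present in every library. Nrp1 and Nrp2, the neuropilin co-receptors, were at 623, 606, 542 and 811 CPM and at 491, 615, 402 and 594 CPM. Tek, the angiopoietin receptor Tie2, was at 415, 377, 592 and 722 CPM against 2.04 to 5.05 CPM in other nuclei. The ligand Angpt1 was lower in members (131, 39.2, 128 and 121 CPM) than in other nuclei (298 to 897 CPM). Of 27 genes of the basement membrane and integrin list, 17 were at least 2 times higher in members than in other nuclei in all 4 libraries. The number was 849 among all 7098 genes tested, and both are a description with no test. Only 18 of the 27 listed genes were tested, so the bases are again unlike. Col4a1 was at 484, 545, 426 and 469 CPM, Lama4 at 277, 422, 301 and 533 CPM and Igfbp7 at 706, 762, 599 and 629 CPM.

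Of the fenestrated and brain barrier lists, some genes were detected widely and others were sparse. To compare nuclei of different depth, each was thinned to 1000 UMIs, which left 59, 113, 131 and 167 of the 60, 119, 133 and 167 members. Plvap, a gene of the rule and so a description, then had a UMI in 54.2%, 46.0%, 46.6% and 49.7% of members, against 0.2 to 1.1% of other nuclei, and before thinning in 71.7%, 77.3%, 69.9% and 77.2%. Outside the rule, Igfbp3 was detected in 42.4%, 36.3%, 35.9% and 49.7% of members (0 to 0.8% of other nuclei) and Nrp1 in 50.8%, 38.1%, 40.5% and 48.5% (1.6 to 3.1%). Other genes of the fenestrated list were sparse, with Col15a1 in 5.08 to 10.8% of members, Esm1 in 6.78%, 7.08%, 0.763% and 4.79% (0.6 to 1.8% of other nuclei) and Gpihbp1, which holds lipoprotein lipase on capillaries, in 0%, 6.19%, 0% and 2.40%. The barrier transporters Mfsd2a and Slco1c1 were at 0 in every library after thinning, and before it Mfsd2a had a UMI in 1 member and Slco1c1 in 0 of 479. Cldn5, the main claudin of the blood-brain barrier, was detected in 0%, 5.31%, 0.763% and 0.599% of thinned members (0 to 0.2% of other nuclei). Before thinning it had a UMI in 2, 10, 2 and 9 members. Its level was low but above other nuclei, at 13.8, 36.2, 9.47 and 19.3 CPM against 0.172 to 0.581. Slc2a1, the glucose transporter, was detected in 3.39%, 1.77%, 1.53% and 1.20%, near the 0.5 to 2.9% of other nuclei. Abcg2, an efflux transporter on the same list, was detected in 61.0%, 54.0%, 63.4% and 62.3% of members and 3.6 to 5.5% of other nuclei. The transporters Abcb1a and Slco1a4 were sparse but above other nuclei, at 48.4, 30.1, 28.4 and 47.3 CPM against 1.495 to 5.33 and at 6.92, 45.2, 54.4 and 29.8 CPM against 0.0916 to 0.782.

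**Figure D3:**
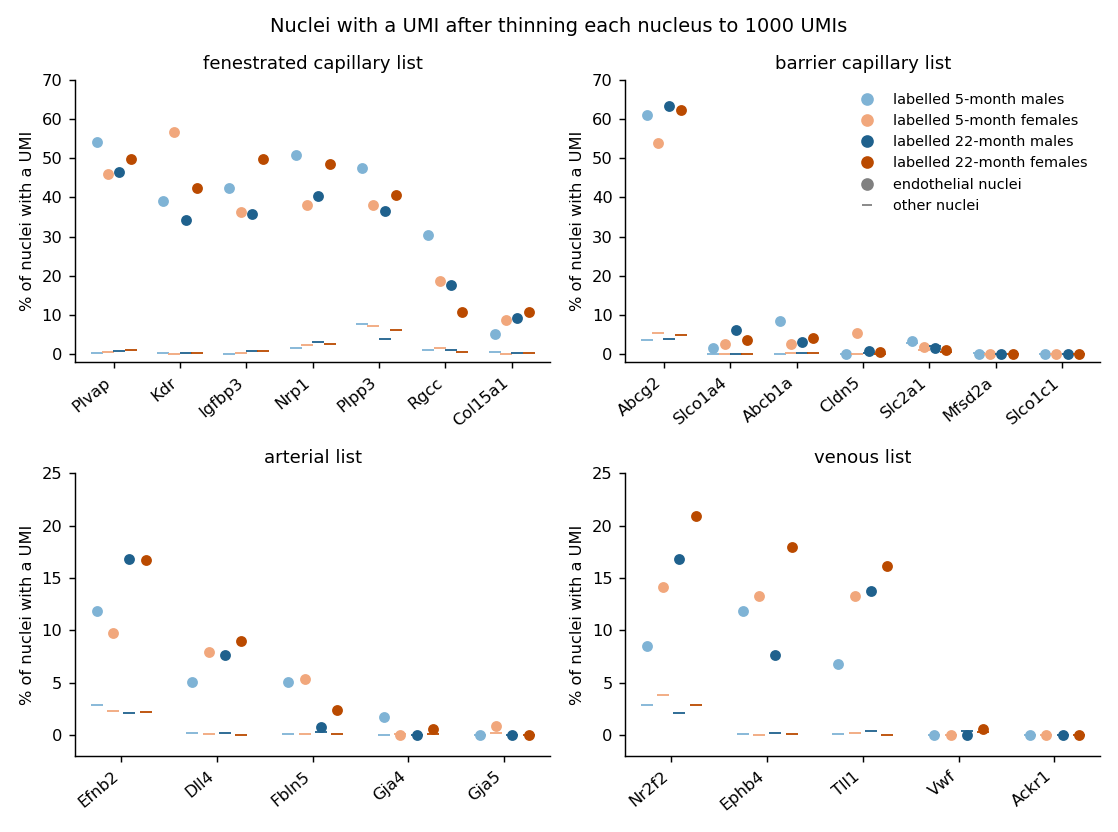
Percent of nuclei with a UMI (vertical axis) after thinning each nucleus to 1000 UMIs, for genes of the fenestrated, barrier, arterial and venous lists (horizontal axis). Circles are endothelial nuclei and dashes other nuclei of the same library, and Plvap, Igfbp3, Nrp1 and Abcg2 stand far above their dashes, while Abcb1a reaches 8.47%, Slco1a4 6.11% and Mfsd2a and Slco1c1 lie at 0.

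Of the arterial and venous lists, some genes were detected above other nuclei and others had no UMI in members. The arterial genes Efnb2 and Dll4 were detected in 11.9%, 9.73%, 16.8% and 16.8% and in 5.08%, 7.96%, 7.63% and 8.98% of thinned members. In other nuclei these shares were 2.1 to 2.9% and 0 to 0.2%. Fbln5, also arterial, was at 41.5, 48.2, 21.3 and 47.3 CPM against 0.900 to 1.31 in other nuclei. Bmx and Gkn3 had no UMI, and Gja5 had 2 nuclei with a UMI among 479. The venous genes Nr2f2, Ephb4 and Tll1 were detected in 8.47 to 20.96%, 7.63 to 17.96% and 6.78 to 16.2% of thinned members. Other nuclei had 2.1 to 3.8%, 0 to 0.2% and 0 to 0.4%. Lrg1, also venous, was at 48.4, 18.1, 7.10 and 12.3 CPM against 0.109 to 0.435. Ackr1, Selp and Sele had no UMI. A count of 0 over 479 nuclei allows up to 0.626% of nuclei with a UMI. Before thinning, 47 members had 2 or more arterial genes, 92 had 2 or more venous genes and 18 had both. Of the lymphatic list, Lyve1 was at 0 in every library. Prox1, the factor that specifies lymphatic endothelium, was at 13.8, 69.3, 42.6 and 57.8 CPM against 39.7, 47.0, 27.5 and 36.0 in other nuclei, so it was above them in 3 of 4 libraries. Mmrn1, which encodes multimerin, was at 13.8, 60.3, 135 and 70.1 CPM against 0.0916 to 0.477, and Flt4, which fenestrated endothelium also expresses, at 83.0, 142, 170.4 and 194 CPM against 0.244 to 1.18.

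Clustering the members gave 4 clusters, which are called by their leading genes and stay unnamed. The 19 genes called different by label below, and the genes of sex, hormones and mitochondria, were left out of it. Cluster 1 (160 nuclei) led with Kirrel3 and Sned1, cluster 2 (85 nuclei) with Hmcn1, Efnb2 and Kitl, and cluster 4 (150 nuclei) with Bcl6b, Kit and Dapk2. The 10 arterial genes summed to 586 CPM in cluster 2 against 304 to 308 CPM in clusters 1 and 4, but Efnb2, itself a leading gene of cluster 2, held 418 CPM there against 130 and 171. The 10 genes of the fenestrated list, 2 of them genes of the rule, summed to 16551 against 11194 and 11446 CPM. Cluster 3 (84 nuclei) led with Zfpm2, Egfem1, Fgf14 and Trpm3, and its endothelial genes summed to 1934 CPM against 6486 to 7821 CPM in the others. Its nuclei had a median of 5794.5 UMIs, and Scrublet called 65 of the 84 doublets. All 4 clusters held nuclei of every library, and the number of clusters was 3 at resolution 0.4, 9 at resolution 1 and 6 without doublets, alternatives chosen after seeing the data.

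By labelled age, 18 genes passed. Of the 7098 genes tested with edgeR's quasi-likelihood test over the 4 summed libraries, with labelled sex as a term, these were under a Benjamini-Hochberg adjusted p of 0.05 (0.254% of genes tested), 12 higher in the libraries labelled 22-month (0.169%) and 6 lower (0.0845%). The fit leaves 1 residual degree of freedom, the departure of the 4 libraries from the additive model, and borrows the rest of its spread across genes. No group has a replicate, so its p-values measure no spread between like pools. Differences between the pools may be technical. Of the 18, 4 were Y-linked and lower (Ddx3y, Eif2s3y, Kdm5d and Uty), and Xist and its antisense Tsix were higher. Cntnap2, Gm1604a, Chst9 and the X-linked Frmpd4 were also among the higher genes. DESeq2 with the same terms called 7, all among the 18. The number called was 94 with no low-count filter, 33 without doublets, 103 without the limit on somatotrope genes, and 58 to 78 on leaving out any 1 library with labelled age alone in the model.

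Insr and Nxn were the called genes whose levels were higher in endothelial nuclei than in other nuclei, by at least 2 times in every library. Insr, the insulin receptor (chromosome 8, 3122061 to 3279617, minus strand, build mm10), was at 436, 497, 975 and 1471 CPM (63, 165, 412 and 840 UMIs) in the members. Both 22-month values lie above both 5-month values. The ratio of 22-month to 5-month was 2.24 (exact 95% interval 1.71 to 2.96, counting error only) between the libraries labelled male and 2.96 (2.50 to 3.52) between those labelled female. The fitted log2 difference was 1.37 ± 0.20 (SE, 2 libraries against 2, edgeR adjusted p = 0.00663). In other nuclei Insr was at 121, 133, 135 and 157 CPM, in macrophages at 127, 184, 132 and 167 CPM and in mural and fibroblast nuclei at 117, 131, 135 and 167 CPM. The call was kept on leaving out any 1 library (adjusted p 1.27e-05 to 0.0393), without Scrublet doublets and without nuclei holding markers of other types. It was lost without the limit on somatotrope genes (log2 0.95, adjusted p = 0.0729), with labelled age alone in the model (adjusted p = 0.0809) and in DESeq2 (log2 1.36, adjusted p = 0.373).

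Nxn, which encodes the thioredoxin-like enzyme nucleoredoxin (chromosome 11, 76257198 to 76399140, minus strand), had the same order of libraries. It was at 277, 286, 582 and 739 CPM (40, 95, 246 and 422 UMIs), with a log2 difference of 1.23 ± 0.22 (SE, edgeR adjusted p = 0.0323). Other nuclei held 60.8 to 65.9 CPM. The ratio of 22-month to 5-month was 2.10 (1.501 to 3.02) between the libraries labelled male and 2.58 (2.06 to 3.26) between those labelled female. The call was lost on leaving out the library labelled 5-month males (adjusted p = 0.0712), 5-month females (0.0904) or 22-month females (0.0621), without the limit on somatotrope genes (0.173), with labelled age alone in the model (0.105) and in DESeq2 (adjusted p = 0.9999), although the log2 difference stayed between 0.77 and 1.36 under every alternative.

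**Figure D4:**
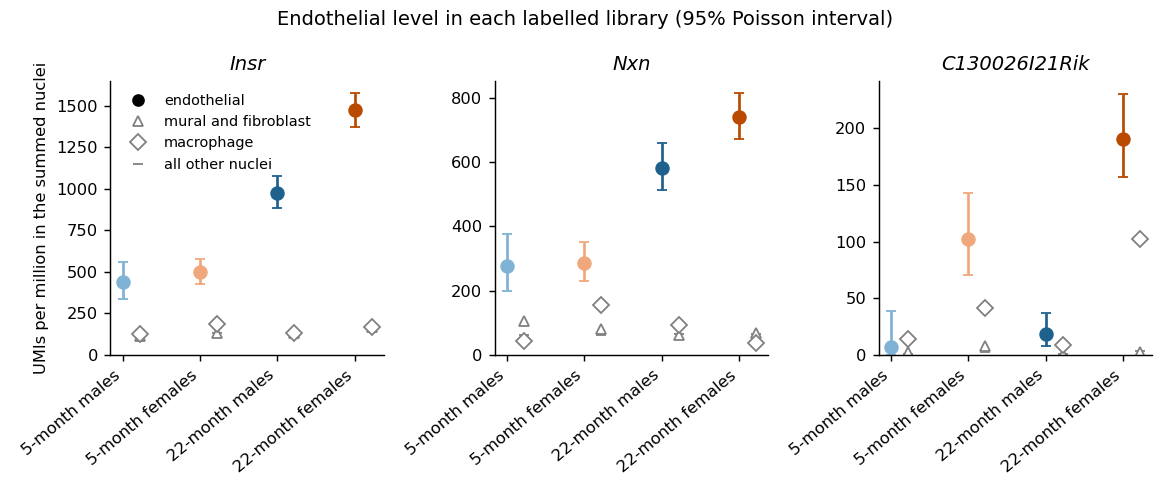
Level of Insr, Nxn and C130026I21Rik (vertical axes, CPM) in each labelled library (horizontal axes), with 95% Poisson intervals for endothelial nuclei and grey symbols for mural and fibroblast nuclei, macrophages and all other nuclei. Insr and Nxn are higher in both libraries labelled 22-month, and C130026I21Rik in both labelled female, in macrophages too.

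The difference in Insr was present in each cluster of members. In cluster 1 it was at 392, 523, 1090 and 2159 CPM, in cluster 2 at 924, 873, 2219 and 2281, in cluster 3 at 242, 290, 366 and 656, and in cluster 4 at 597, 670 and then 1114 and 1780 CPM. Both libraries labelled 22-month stood above both labelled 5-month in 4 of 4 clusters. The same held for Nxn, at 321, 304, 635 and 1146 CPM in cluster 1 and 427, 305, 798 and 781 CPM in cluster 4. The gap was smaller in cluster 2 (704, 436, 828 and 1554 CPM) and cluster 3 (71.1, 230.2, 360.5 and 288 CPM). Neither gene was used to form the clusters, and the counts within a cluster are small, from 11 to 303 UMIs for Insr and 5 to 146 for Nxn. Both genes were named because their sums over these same nuclei differed by labelled age. Their order within clusters of the same libraries is therefore a description and not a separate test, and clusters are not replicates.

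**Figure D5:**
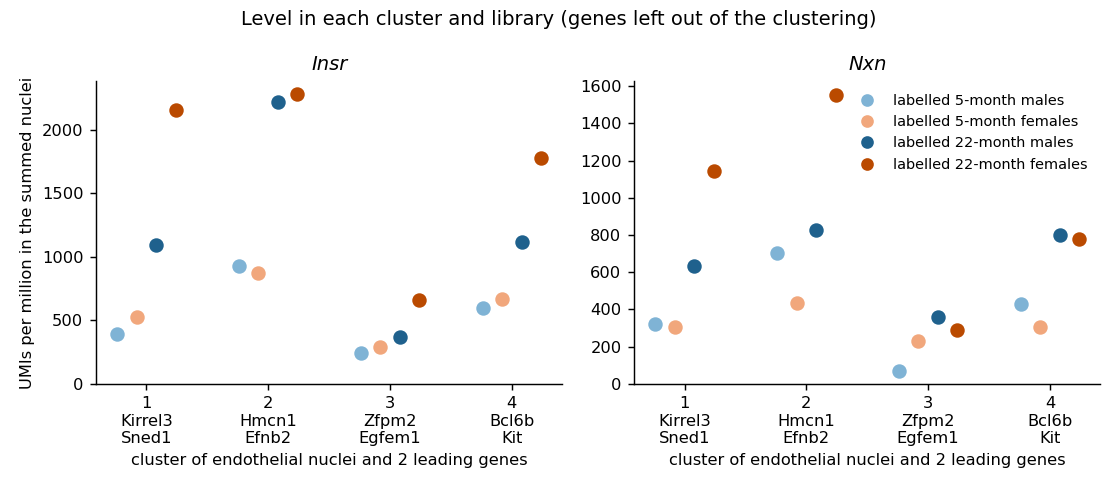
Level of Insr and Nxn (vertical axes, CPM) in the 4 clusters of endothelial nuclei (horizontal axes) for each labelled library. In every cluster the 2 dark points of the libraries labelled 22-month lie above the 2 pale points of those labelled 5-month, from 366 and 656 against 242 and 290 for Insr in cluster 3.

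The other called autosomal genes had no such excess in members over other nuclei. Prl, prolactin, was at 17952, 8626, 70530 and 33971 CPM in members and at 15971, 8977, 67512 and 40178 CPM in other nuclei (log2 difference by labelled age in members 1.97 ± 0.10, SE, edgeR adjusted p = 2.31e-07, and 0.199 without the library labelled 5-month females). Gh, growth hormone, was at 89117, 60871, 26931 and 22052 CPM in members and 131070, 82428, 46334 and 35290 CPM in other nuclei, and did not pass when the 5-month males were left out (edgeR adjusted p = 0.324) or with labelled age alone in the model (0.105). Nnat was at 4090, 1967, 689 and 778 CPM in members and 6643, 5499, 1334 and 1433 in others. Of the neuronal adhesion genes, Lsamp was at 138, 193, 731 and 951 CPM in members against 444, 631, 1740 and 3373 in others, and lost its call without nuclei holding markers of other types (log2 0.87, edgeR adjusted p = 0.555). Nrxn3 was at 76.1, 69.3, 237 and 335 against 241, 198, 1126 and 1749, and lost its call without doublets (log2 2.01 to 0.63, edgeR adjusted p = 0.828) and in DESeq2 (0.578). Reln, the secreted glycoprotein reelin, had 0 UMIs in both libraries labelled 5-month and 29 and 46 UMIs (68.6 and 80.6 CPM) in those labelled 22-month. Against 5-month, this is at least 3.31-fold higher for the male labels and at least 8.91-fold higher for the female labels, counting 3 UMIs per library in place of 0. Other nuclei held 361 and 702 CPM of Reln in the same 2 libraries. Cluster 3, in which 65 of 84 nuclei were called doublets, held 869 UMIs of Lsamp against 15 to 31 in each other cluster, and 59 UMIs of Reln against 4 to 6.

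By labelled age 2 listed genes passed. Of the 20 lists, Insr passed in the list of lipid and metabolite uptake (1 of 11 tested) and Reln in the lymphatic list (1 of 6), and no other listed gene did. At an unadjusted p under 0.05, 7 of 28 tested genes of the MHC and interferon list passed, against 701 of all 7098 tested, and the list's median log2 difference was 0.41 against 0.01 over all genes tested. The class I genes H2-K1 and B2m, which present peptides, were at 332, 398, 334 and 490.5 CPM and at 263, 304, 204 and 294 CPM, with no order by labelled age. The median of the leukocyte adhesion list was -0.35 (0 of 11 passed, 2 at an unadjusted p under 0.05), and Cd34, a sialomucin, was at 90.0, 84.4, 47.3 and 52.6 CPM. The median of the immediate early list was -0.68 over 7 genes (0 passed). Lists of endothelial transcription factors, basement membrane and fenestrae had medians of 0.20, 0.05 and 0.10, with 0 passing of 21, 18 and 8 genes tested.

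Other receptors of the insulin and growth factor family were measured beside Insr. Igf1r, the receptor for IGF1, was at 125, 259, 317 and 328 CPM in members (log2 difference 0.73 ± 0.28, SE, edgeR adjusted p = 0.454), below the 288 to 783 CPM of other nuclei. Igf2r, which clears IGF2, was at 76.1, 84.4, 78.1 and 77.1 CPM. Igfbp5, a binding protein of insulin-like growth factors, was at 111, 181, 263 and 286 CPM (0.88 ± 0.27, SE, edgeR adjusted p = 0.364). Scarb1, a receptor for high-density lipoprotein, was at 228, 148, 279 and 266 CPM. Tek was at higher levels in both libraries labelled 22-month (0.73 ± 0.21, SE, edgeR adjusted p = 0.307) but did not pass.

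By labelled sex, 2 of 7098 genes passed (0.0282%), 1 in each direction, and DESeq2 called 0 (15 genes at an unadjusted p under 0.05). The number was 40 without doublets, 22 with no low-count filter and 5 to 24 on leaving out 1 library. C130026I21Rik (chromosome 1, 84992690 to 85270566, minus strand) was at 6.92, 102, 18.9 and 191 CPM (1, 34, 8 and 109 UMIs), so that both libraries labelled female were above both labelled male. Its log2 difference was 3.35 ± 0.42 (SE, edgeR adjusted p = 0.00821), and leaving out any 1 library kept the call. It was lost in DESeq2 (adjusted p = 0.9999) and with labelled sex alone in the model (0.212). In macrophages both libraries labelled female were also above both labelled male, at 14.2, 41.7, 8.93 and 102 CPM, and mural and fibroblast nuclei held at most 7.83 CPM. The gene lies in a repeated gene cluster near Sp100, where similar copies can share reads, so its count is uncertain. The other gene was Prl (log2 difference -1.10 ± 0.10, SE, edgeR adjusted p = 0.000415), which had a log2 difference of 0.20 without the library labelled 22-month males.

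No gene of the 20 lists passed by labelled sex. The largest list median was that of the venous list, 0.70 over 6 tested genes against 0.00 over all genes tested, and 0 of the 6 passed (3 at an unadjusted p under 0.05, against 361 of all 7098). Tll1, a metalloprotease on that list, was at 48.4, 99.4, 107 and 266 CPM, with log2 differences of 1.32 ± 0.32 by labelled age (SE, edgeR adjusted p = 0.161) and 1.20 ± 0.31 by labelled sex (adjusted p = 0.631). Between the libraries labelled 22-month the ratio of females to males was 2.50 (1.78 to 3.57, counting error only), and between those labelled 5-month it was 2.05 (0.893 to 5.50).

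The labelled age difference of endothelial nuclei was compared with that of all other nuclei in 1 fit over 8 sums with a term for each library. This fit also leaves 1 residual degree of freedom, and the other nuclei are a mix of cell types. Of 7098 genes, 5 passed (0.0704%), and these 5 were among the 8 to 58 that passed under the settings that moved the count. In Sncaip (log2 difference of the 2 differences -2.51 ± 0.26, SE, edgeR adjusted p = 0.0106), Adam12, Gas7 and Phldb2 the 22-month to 5-month difference was smaller in members than in other nuclei. Sncaip, which encodes a partner of alpha-synuclein, was at 138, 169, 179.9 and 301 CPM in members and 6.99, 10.8, 53.6 and 108 in others. Adam12, a metalloprotease, was at 145, 226, 137 and 201 CPM in members and 6.99, 10.97, 34.2 and 51.0 in others, and Gas7 at 374, 455, 495 and 609.6 CPM against 9.25, 10.8, 34.4 and 66.7. Lmo2, a transcription cofactor of endothelium and blood, was even in members (194, 244, 211 and 201 CPM) and lower in the other nuclei of the libraries labelled 22-month (16.2, 14.1, 2.93 and 3.24 CPM). Insr did not pass this test (log2 1.17 ± 0.23, SE, edgeR adjusted p = 0.162), nor did Nxn (1.15 ± 0.24, adjusted p = 0.171). By labelled sex the same comparison gave 0 of 7098 genes (0%) in edgeR, with 330 at an unadjusted p under 0.05, and DESeq2 was not run on it.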

How the data were processed

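Single-nucleus RNA libraries (10x 3′ chemistry, 4 libraries, 3 glands pooled in each, 10000 nuclei aimed at) were deposited as whole-number UMI counts per gene and barcode. Per the file headers the authors made these counts with Cell Ranger 7.0.1, and per the labels the genome build was mm10. The treatment of intronic reads in counting is not stated in these sources. Library totals were 33328821, 35240987, 65773807 and 49262366 UMIs.

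Members were selected on measured values as described above, and the members and gene lists were chosen with earlier results of these data known. Counts of members were summed per library, giving CPM. Genes were tested with edgeR 4.0.16 (R 4.3.3, TMM, quasi-likelihood F test, labelled age and labelled sex as terms), with Benjamini-Hochberg adjustment over all 7098 genes. A second fit over 8 sums compared members with all other nuclei. Intervals of ratios and shares are exact 95% intervals and, like floors of 3 UMIs, cover counting error only. Each group is 1 library, so the fit borrows its spread across genes and from the additive model.

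Named genes were the rule genes, up to 15 called autosomal genes a direction that were 2 times higher than in other nuclei, up to 4 per list, the 25 leading genes and the sex-linked genes. Angpt1, Igf2r, Sox17, Prox1, Gja1, Apoe, B2m, the segment genes, the other called genes and the 5 genes of the comparison with other nuclei fall outside it or were chosen after their values were seen. Alternatives were DESeq2 1.42.0, its size factors, no low-count filter, other membership rules, leaving out each library, and omission of the limit on somatotrope genes, the last chosen after seeing the data. Doublets were scored with Scrublet in scanpy 1.11.5 and kept in the main result. Clusters used 1000 variable genes, 15 components and Leiden resolution 0.6. Gene positions are from GENCODE M21. On simulated counts for 7098 genes, the labelled age test recovered 26 of 100 genes changed 2-fold and 79 of 100 changed 4-fold, with 4 unchanged genes called. Every gene was simulated with the same dispersion (0.0285), estimated from these 4 libraries. These numbers therefore hold under that assumption and do not measure spread between like pools.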

Additional observations from a re-analysis of the deposited data

Results flagged for a closer look

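For 5 genes the difference by labelled age in endothelial nuclei differed from that in all other nuclei (edgeR, quasi-likelihood, p adjusted by Benjamini-Hochberg, 1 fit over 8 sums). Lmo2 had a log2 difference of the 2 differences of 2.17 ± 0.29 (SE, adjusted p = 0.0413), with 194, 244, 211 and 201 CPM in endothelial nuclei. Adam12 had -2.38 ± 0.25 (adjusted p = 0.0106), Gas7 had -1.88 ± 0.26 (0.045) and Sncaip had -2.51 ± 0.26 (0.0106). Phldb2 had -1.82 ± 0.24 (0.0413), at 201, 220, 182 and 287 CPM in endothelial nuclei and 32.9, 27.9, 101 and 133 CPM in the others. The fit leaves 1 residual degree of freedom, and no group has a replicate. The other nuclei mix cell types whose numbers differ by library. Mural and fibroblast nuclei, for example, numbered 163, 222, 600 and 556 among 7999, 7420, 12066 and 8130 barcodes. The part of that mix in these differences was not tested.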

How the results depend on the processing

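No paired analysis was possible because each labelled group is 1 library, so no replicate number pairs libraries between groups (members and other nuclei of a library were compared with a term for the library). The count of genes called by labelled age was 18, and it was 94 with no low-count filter (73 higher, 21 lower), 33 without doublets (22 and 11), 103 without the limit on somatotrope genes (88 and 15), 7 in DESeq2 and 58 to 78 on leaving out 1 library. By labelled sex the count was 2, and it was 22, 40, 1 and 0 under the same 4 settings, 1 with at least 4 genes, 6 without nuclei holding other-type markers, 1 without hormone genes, 0 with labelled sex alone and 5 to 24 on leaving out 1 library. The larger sets did not always hold the main calls. Of the 18 genes called by labelled age, 18 were also called with no low-count filter and 16 without the somatotrope limit. Without doublets, where 5378 genes were tested, 12 of the 18 were called. For members against other nuclei by labelled age the count was 5, and it was 43 with DESeq2 size factors, 58 with no filter, 8 with at least 4 genes, 58 without other-type markers, 23 without the somatotrope limit and 15 without hormone genes. By labelled sex it was 0, and it was 10 with no filter, 14 without other-type markers and 1 without the somatotrope limit. The log2 difference of Prl by labelled sex ranged from -2.40 to 0.20 on leaving out 1 library, and reversed without that labelled 22-month males. The cause was not tested. On leaving out a library the other label is no term, and a lone library is assumed to vary like the others.

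Shares in the order used above were 0.330, 1.12 and 0.870% in the first 3 libraries with at least 1000 genes, 1.97, 1.33 and 2.45% in the last 3 with at least 2 rule genes, and 1.43 and 2.73% in the libraries labelled 22-month without the somatotrope limit. Thinning lowered the share of members with any gene of a list to 25.7% (arterial), 36.8% (venous), 98.5% (fenestrated), 65.7% (barrier), 28.1% (lymphatic) and 20.4% (tip).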

Other observations

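At Leiden resolution 1, a setting chosen after seeing the data, a cluster of 47 nuclei led by Tll1, Kcnq1 and Insr held 2, 5, 3 and 37 nuclei of the 4 libraries, in the order used above. These were 3.33, 4.20, 2.26 and 22.2% of the endothelial nuclei of each library. None of the 47 was called a doublet. With 1 library per group, a cluster drawn mostly from 1 library may be that library. Insr was left out of the genes used to form the clusters.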
